A study of Homo sapiens with 24 samples.

Results

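Chromosome 15 is an acrocentric chromosome whose short arm carries arrays of ribosomal RNA genes that the human assembly does not represent, so that sequencing reads are placed along its long arm. The long arm holds, among others, an imprinted gene cluster, the gene for β2-microglobulin, which is the light chain of MHC class I, the gene for aromatase, which converts androgens to oestrogens, and the gene for the type 1 IGF receptor. The peaks described here were all those that 24 peak lists of open chromatin placed on chromosome 15 of hg19, and they numbered 141395 of 4683186 peaks (3.02%), with 2396 to 9285 peaks per list. They lay between chr15:20000099-102521496 and were assigned by their summits to 42 bins of 2 Mb, all of which averaged 20 or more peaks per library. The chromosome was selected because earlier results of these data had shown a lower share of peaks in RES-A than in LNCaP in many of its windows. All values that set RES-A against LNCaP along chromosome 15 are therefore descriptions without a test.

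The lists came from formaldehyde-assisted isolation of regulatory elements with sequencing (FAIRE-seq), in which crosslinked chromatin is extracted with phenol and the DNA that is not held by nucleosomes is sequenced. LNCaP is an androgen-sensitive human prostate cancer cell line, and RES-A is an enzalutamide-resistant subline made by growing LNCaP cells under rising amounts of enzalutamide (ENZ), a drug that blocks the androgen receptor. Both were held for 3 days in medium with 5% charcoal-stripped (DCC) serum, which is poor in androgens, and the medium of RES-A alone also held 10 µM ENZ during these days. Each subline then received DMSO as the solvent control, the androgen dihydrotestosterone (DHT, 10 nM), ENZ (10 µM) or both (DHT+ENZ) for 18 h, with 3 libraries in each of the 8 groups. The contrast of RES-A with LNCaP therefore covers both the subline and the ENZ of the preceding culture, which cannot be told apart, and RES-A stands for a single derivation of resistance. Gene annotation of the lists' build was not used here, so that no region is named by a gene and the identity of the cells was not checked against markers.

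Each list was called by the authors in its own library, and the lists held 73254 to 275774 peaks. Depth was judged from the genome-wide background, the lowest expected number of overlapping fragments per base within a list, which was 0.406 in LNCaP ENZ replicate 1, 0.739 in LNCaP DHT replicate 1 and between 1.81 and 5.99 in the other 22 libraries. The first of these libraries had 73254 peaks and the second 82224. The results on chromosome 15 were therefore also computed without this pair of shallow libraries.

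The share of a library's peaks that lay on chromosome 15 was lower in RES-A than in LNCaP. In the 12 LNCaP libraries the share ran from 3.27% to 3.47% with a median of 3.35%, and in the 12 RES-A libraries from 2.50% to 2.80% with a median of 2.75%. The ranges did not overlap, with means of 3.35% ± 0.061 in LNCaP and 2.70% ± 0.0953 in RES-A (SD, n = 12 each), a ratio of 0.806. Without the shallow pair the difference was −0.657 percentage points, against −0.649 with all libraries.

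The difference was present under each of the 4 treatments. It was −0.667 percentage points with DMSO, −0.626 with DHT, −0.588 with ENZ and −0.713 with DHT+ENZ, and in none of them did the 3 libraries of one subline overlap those of the other. When every list was limited to its 50000 peaks with the highest −log10 p, the share was 3.46% ± 0.0369 in LNCaP and 2.59% ± 0.0374 in RES-A (SD, n = 12 each). The difference among these top-ranked peaks was −0.872 percentage points, wider than over all deposited peaks. Among the peaks below that rank the share was 3.26% ± 0.187 in LNCaP and 2.74% ± 0.124 in RES-A, and there the ranges overlapped. Among the 24 chromosomes ordered by the difference of the mean log2 share, chromosome 15 stood second from the lowest with −0.31, between chromosome 4 with −0.36 and chromosome 8 with −0.23, and chromosome 6 was at the other end with 0.44.

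**Figure D1:**
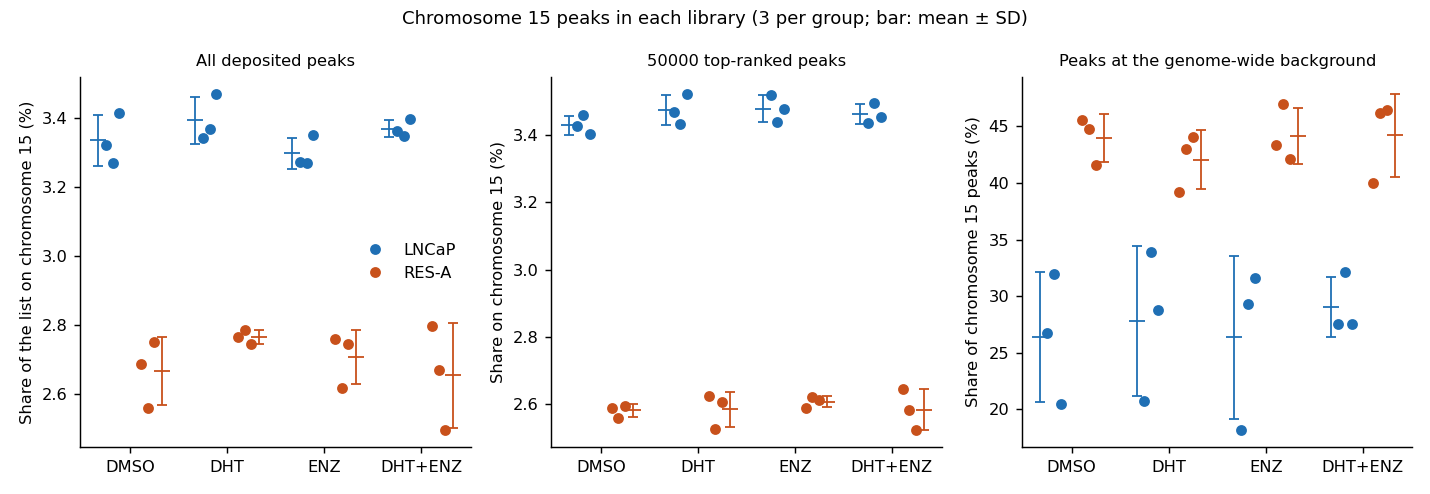
Each dot is one library, placed by treatment (horizontal axis) and coloured by subline, and the bars give the mean ± SD of 3 libraries. The vertical axes give, from left to right, the percentage of all deposited peaks on chromosome 15, the same among the 50000 top-ranked peaks, and the percentage of chromosome 15 peaks at the genome-wide background; the RES-A libraries lie below the LNCaP libraries in the first pair of panels (means 2.70% against 3.35% and 2.59% against 3.46%) and above them in the third (43.6% against 27.4%).

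Over all deposited peaks the lower share extended along most of the arm. Of the 42 bins, 37 had a lower mean log2 share in RES-A (46.2% of all bins of the genome), and these 37 were lower under all 4 treatments. The 12 RES-A values fell below the 12 LNCaP values without overlap in 24 bins, where over all 1463 bins of the genome 16.7% did so. They lay above without overlap in 1 bin (15.4% of all bins). Fewer bins held enough peaks when only peaks of higher rank were taken. Of these, 20 of 34 were lower without overlap for the 50000 top-ranked peaks (11.6% of all bins) and 3 of 16 for the 25000 (2.69% of all bins). With bins of 5 Mb, 14 of 17 were (20.4% of all). The median difference over the bins of chromosome 15 was −0.33 on the log2 scale, against 0.03 over all bins. The bins kept their order of peak density between the sublines, with a correlation of 0.909 between the mean shares of LNCaP and RES-A over the 42 bins, which are neighbours on one chromosome and share the same libraries.

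A fit of constant levels to the difference along the arm gave 3 segments. The first, chr15:20000001-88000000, held 34 bins with a mean difference of −0.36. The second, chr15:88000001-98000000, held 5 bins with a mean of 0.11, and the last, chr15:98000001-104000000, held 3 bins with a mean of −0.31. On this measure RES-A thus ran at 0.777 of the LNCaP share over most of the arm, near it over 10 Mb, and at 0.806 towards the end of the chromosome. The final bin of the last segment extended past the last peak, which ended at 102521496. It averaged 42.3 peaks per library and had a difference of −0.52. Each bin counts equally in these means. With the peaks of the last segment pooled, the share was 0.180% in LNCaP and 0.152% in RES-A, a ratio of 0.844.

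The first break was visible in the values of the bins on either side of it. In the bin at 86 to 88 Mb, which had the most negative difference of the chromosome (−0.80), the share was between 0.0647% and 0.0901% with a median of 0.0729% in LNCaP, and between 0.0364% and 0.0487% with a median of 0.0405% in RES-A. In the next bin, at 88 to 90 Mb, LNCaP ran from 0.0486% to 0.0665% (median 0.0537%) and RES-A from 0.0498% to 0.0655% (median 0.0587%), a difference of 0.12. The sublines were thus apart in the bin before 88 Mb and overlapped in the bin after it. This did not hold for all bins on each side: 12 of the 34 bins of the first segment overlapped, and 3 bins after 88 Mb did not.

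The second break lay between the bin with the most positive difference and a bin where RES-A was lower. At 96 to 98 Mb the share was 0.03% to 0.0433% in LNCaP (median 0.0402%) and 0.0438% to 0.0555% in RES-A (median 0.05005%), the only bin of the chromosome in which RES-A was higher without overlap, with a difference of 0.35. At 98 to 100 Mb it was 0.0645% to 0.0757% in LNCaP (median 0.0675%) and 0.0526% to 0.0637% in RES-A (median 0.0583%), again without overlap and with a difference of −0.25. At 94 to 96 Mb, with the second most positive difference (0.24), the ranges overlapped, at 0.0191% to 0.0365% in LNCaP (median 0.0278%) and 0.0295% to 0.0362% in RES-A (median 0.0321%).

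The other bins with the most negative differences lay near the middle of the arm. At 54 to 56 Mb the share ran from 0.0568% to 0.0778% in LNCaP (median 0.0656%) and from 0.0367% to 0.0413% in RES-A (median 0.0391%), a difference of −0.74 with no overlap. At 50 to 52 Mb it ran from 0.0710% to 0.1169% in LNCaP (median 0.1077%) and from 0.0612% to 0.0769% in RES-A (median 0.0690%), a difference of −0.63 with overlapping ranges.

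The breaks depended on the rank of the peaks taken. With the 50000 top-ranked peaks of each list the same fit gave no break, and with the 25000 it gave breaks at 44 and 90 Mb. In the segment from 88 to 98 Mb the share among top-ranked peaks was 0.290% ± 0.0139 in LNCaP and 0.260% ± 0.00963 in RES-A, lower in RES-A, whereas among the remaining peaks it was 0.260% ± 0.0225 and 0.290% ± 0.0207, higher in RES-A (SD, n = 12 each). Both pairs of ranges overlapped. Over all deposited peaks the segment held 0.272% ± 0.0131 of the LNCaP peaks and 0.282% ± 0.0156 of the RES-A peaks. In the first segment the order was the same in both rank classes, with 2.97% ± 0.0297 in LNCaP and 2.17% ± 0.0276 in RES-A among the top-ranked peaks, and 2.83% ± 0.160 and 2.30% ± 0.0992 among the rest.

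**Figure D2:**
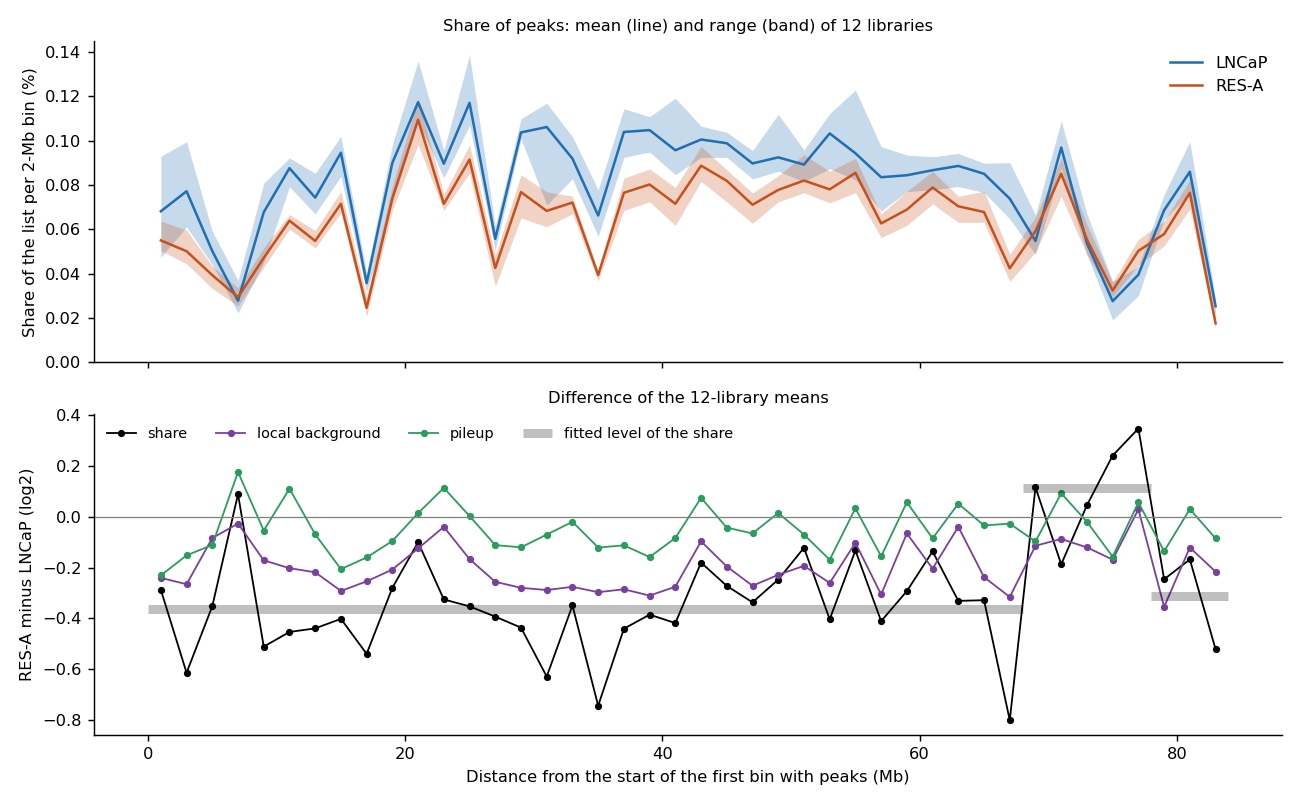
The upper panel gives the share of each list's peaks per 2-Mb bin as the mean (line) and the range (band) of 12 libraries per subline. The lower panel gives the difference of the means, RES-A minus LNCaP on the log2 scale, for share, recovered local background and pileup. Grey bars mark the fitted levels of the share (−0.36, 0.11 and −0.31). On the horizontal axis 0 is the start of the bin at 20 to 22 Mb. The background lies below 0 in 41 of 42 bins (57.7% of all bins of the genome). Its single positive value, 0.03, is in the bin at 96 to 98 Mb, where the share difference is also highest (0.35).

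The local background of a peak, the number of overlapping fragments expected at its place without enrichment, was recovered from the deposited pileup and fold enrichment. Relative to the median of the whole list, its median over the chromosome 15 peaks of a LNCaP library lay between −0.03 and 0.08 on the log2 scale with a median of −0.01, and in RES-A between −0.24 and −0.21 with a median of −0.23. The chromosome was thus at the level of the list in LNCaP and below it in RES-A, with means of 0.00 ± 0.03 and −0.23 ± 0.01 (SD, n = 12 each). In 26 of the 42 bins the RES-A values lay below the LNCaP values without overlap (11.9% of all bins), and in 0 bins above (12% of all bins). The difference of means was negative in 41 bins (57.7% of all bins) and had a median of −0.21.

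Unlike the share, the background gave no break by the same fit, although its difference was smallest in the segment from 88 to 98 Mb. The single level of its fit covered all 42 bins, and it was lower in RES-A in each of the 3 segments of the share: by −0.23 in the first, −0.12 in the second and −0.25 in the last, with no overlap between the 12 and 12 libraries in any of them. In the segment from 88 to 98 Mb, LNCaP itself was at −0.16 ± 0.06 and RES-A at −0.28 ± 0.02. The fit cannot show that the difference was even along the arm, because the recovered background cannot lie below the genome-wide background of its list. In RES-A, means of 61.1% of the peaks at 24 to 26 Mb and 55.5% at 88 to 90 Mb were at that value. The mean relative background was −0.33 in both bins, and a further fall could not be seen there. The same limit held in other bins of RES-A. Among them were those at 26 to 28 Mb (68.0% at that value), 28 to 30 Mb (58.8%) and 54 to 56 Mb (55.9%). The bin at 96 to 98 Mb was the one with a positive difference, of 0.03, and its ranges overlapped. Across the 42 bins the differences of share and of background had a correlation of 0.640, over points that share libraries and neighbour each other.

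With this shift went a larger number of peaks at the genome-wide background, the floor that the peak caller applies where no local estimate is higher. On chromosome 15 such peaks made up 18.2% to 33.9% in LNCaP (median 28.1%) and 39.2% to 46.9% in RES-A (median 43.7%). The ranges did not overlap, with means of 27.4% ± 5.1 and 43.6% ± 2.54 (SD, n = 12 each), while over whole lists the LNCaP mean was 28.2% and the RES-A mean 29.4%, with overlapping ranges. The percentage was higher in RES-A without overlap in 21 bins (12.7% of all bins). Leaving these peaks out reduced the difference of background to −0.11 in the first segment and −0.19 in the last, and turned it to 0.03 in the second.

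The pileup, the height of a peak in overlapping fragments at its summit, differed less when all peaks were taken. The median pileup of the chromosome 15 peaks equalled that of the list in all 12 LNCaP libraries, a difference of 0, and in RES-A the difference ran from −0.15 to 0.05 with a median of −0.06. These medians were whole numbers, such as 7 in LNCaP ENZ replicate 1 and 26 in LNCaP DMSO replicate 2. Differences of less than 1 fragment could therefore not show. No bin was without overlap in either direction, where over the genome 1.57% of bins were lower and 0.547% higher in RES-A. The set of called peaks is itself limited by height, since a peak has to pass the caller's threshold in its own library. The median fold enrichment of chromosome 15 peaks, with 3.91 ± 0.613 in LNCaP and 4.85 ± 0.313 in RES-A, overlapped between the sublines, and that of whole lists was 3.88 ± 0.611 and 4.53 ± 0.395.

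A comparison that does not change its members between libraries was made on regions called in all 24 lists. Overlapping top-ranked peaks were merged into regions, of which 12669 were called in every library, 373 of them on chromosome 15. For each library the log2 pileup and background were set against the median over all 12669 regions.

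At these shared regions both pileup and background were lower in RES-A. The median relative pileup on chromosome 15 ran from 0.00 to 0.11 in LNCaP (median 0.09) and from −0.23 to −0.18 in RES-A (median −0.21). The means were 0.08 ± 0.03 and −0.21 ± 0.01 (SD, n = 12 each), which is a ratio of 0.821. The median relative background ran from 0.07 to 0.12 in LNCaP (median 0.09) and from −0.33 to −0.26 in RES-A (median −0.29), with a ratio of 0.766. Neither pair of ranges overlapped, and the fold enrichment of the same regions differed by 0.00, with 0.02 ± 0.01 in LNCaP and 0.02 ± 0.02 in RES-A. Pileup and background were thus both lower, the background by more (ratio 0.766 against 0.821). The fold enrichment, taken here to have 1 added to both terms, differed by less than the spread between libraries.

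Nearly all of the shared regions had the same direction. The background was lower in RES-A at 356 and the pileup at 354 of the 373 regions, where over all 12669 regions 51.2% and 50.3% were lower. The middle 50% of the pileup differences lay between −0.40 and −0.19. Without overlap between the sublines, the background was lower at 162 regions (43.4% of those on chromosome 15, and 7.36% of all) and the pileup at 20 (5.36%, and 1.89% of all). Of the 23 chromosomes with at least 20 such regions, chromosome 15 had the lowest difference in both measures, −0.38 for background and −0.29 for pileup. Chromosome 4 followed with −0.28 and −0.22, and chromosome 6 stood at the other end with 0.37 and 0.35.

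The difference at shared regions was similar in size from treatment to treatment. For the background it was −0.39 with DMSO, −0.38 with DHT, −0.38 with ENZ and −0.39 with DHT+ENZ. For the pileup it was −0.30, −0.30, −0.23 and −0.31 in the same order, and the 3 LNCaP ENZ libraries had the lowest relative pileup of that subline, with 0.00 in the shallow library and 0.05 and 0.06 in the others. Along the arm, the 316 shared regions of the first segment had a background difference of −0.40, the 37 of the second −0.27 and the 20 of the last −0.34, each without overlap. Their pileup differed by −0.30, −0.21 and −0.21, with overlapping ranges in the second and the last segment. Without the shallow pair the chromosome's values were −0.38 for background and −0.29 for pileup. In a bulk assay, fewer copies of a chromosome per cell, fewer cells that carry it and less open chromatin per copy cannot be told apart from such values.

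**Figure D3:**
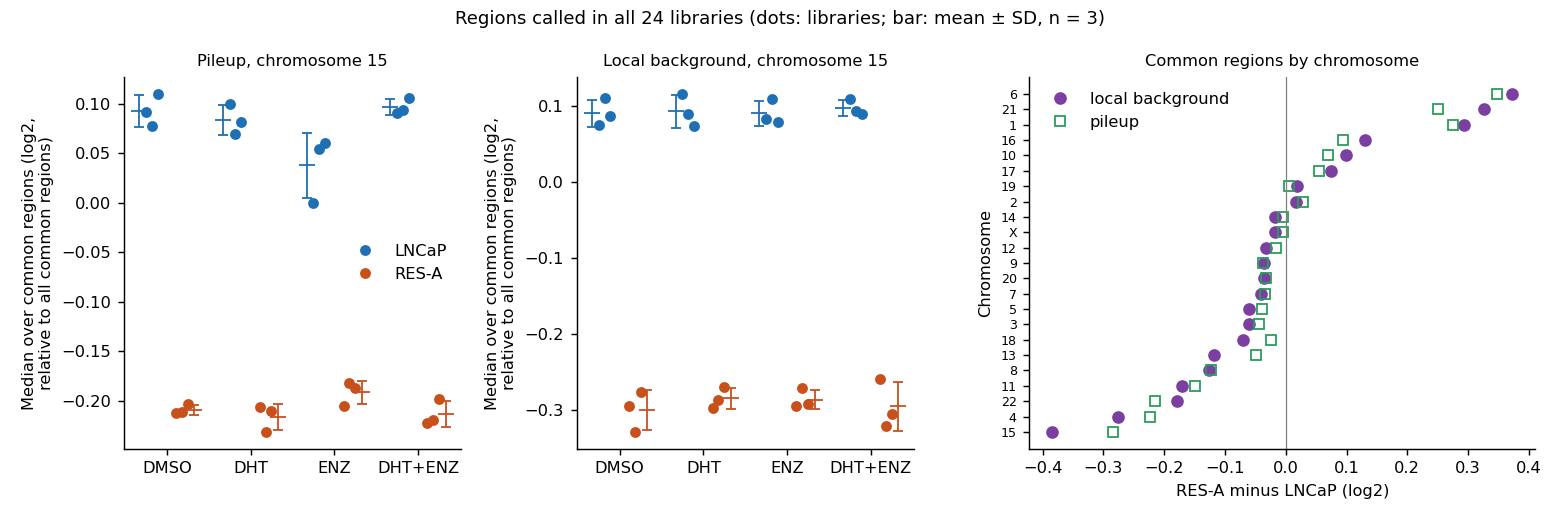
Regions called in all 24 libraries: the left and middle panels give for each library (dots; bars are the mean ± SD of 3 libraries) the median log2 pileup and local background of the 373 regions on chromosome 15 relative to all 12669 regions, by treatment and subline. The right panel orders 23 chromosomes by the RES-A minus LNCaP difference of background (filled circles) with that of pileup (open squares); chromosome 15 is lowest in both, at −0.38 and −0.29.

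At a finer scale, few bins held a large difference over all deposited peaks, and more did among the top-ranked peaks. Of 164 bins of 0.5 Mb with a mean of at least 5 peaks, RES-A was lower by at least 1 on the log2 scale in 4, where over all 5649 such bins of the genome 6.55% were, and higher by at least 1 in 1 (4.3% of all bins). With the 50000 top-ranked peaks, 12 of 123 bins were lower by at least 1 (9.76%, against 4.54% of all bins) and 0 were higher (2.75% of all bins). Relative to the genome, bins with a large loss were thus less frequent on the chromosome over all peaks and more frequent among the top-ranked peaks. The low and high bins described next were those over all peaks. They were chosen by the size of their difference, and their values are given as a description.

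The 4 low bins lay in 2 places. In chr15:54000001-55000000 the lists held 15 to 78 peaks in LNCaP (median 53) and 17 to 28 in RES-A (median 21.5), which as a share was 0.0205% to 0.0330% in LNCaP (median 0.0256%) and 0.00832% to 0.0125% in RES-A (median 0.0114%). The shares did not overlap and differed by −1.22. Among the top-ranked peaks this stretch had 6 to 13 in LNCaP and 1 to 4 in RES-A. Peaks at the genome-wide background made up 31.7% ± 8.85 there in LNCaP and 79.5% ± 3.88 in RES-A (SD, n = 12 each).

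The other place was the end of the first segment, just before the break at 88 Mb. In chr15:86500001-87000000 there were 9 to 49 peaks in LNCaP (median 37) and 8 to 13 in RES-A (median 10.5), a difference in share of −1.56. In chr15:87500001-88000000 there were 4 to 19 peaks in LNCaP (median 7.5) and 0 to 3 in RES-A (median 2). None of the RES-A peaks in the latter stretch was among the top-ranked, against 1 to 3 top-ranked peaks in each LNCaP library. The bin between them, at 87 to 87.5 Mb, had 13 to 57 peaks in LNCaP and 14 to 27 in RES-A and a difference of −0.98. Directly after the break, at 88 to 88.5 Mb, the counts were 5 to 28 and 14 to 22 and the difference was 0.16. The differences in the stretches at 86.5 to 87 Mb and at 54 to 55 Mb were of one sign under all treatments, at −1.80 with DMSO, −1.18 with DHT, −1.64 with ENZ and −1.60 with DHT+ENZ for the former, and at −1.32, −1.26, −0.99 and −1.32 for the latter.

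The single high bin, at 95.5 to 96 Mb, had 2 to 9 peaks in LNCaP and 12 to 23 in RES-A, a difference of 1.49 with no overlap in share. It lay next to the bins at 95, 96 and 96.5 Mb, where RES-A was also higher, by 0.57, 0.54 and 0.56, with overlapping ranges. They lie in the 2-Mb bins at 94 to 96 and 96 to 98 Mb, which had the most positive differences above.

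**Figure D4:**
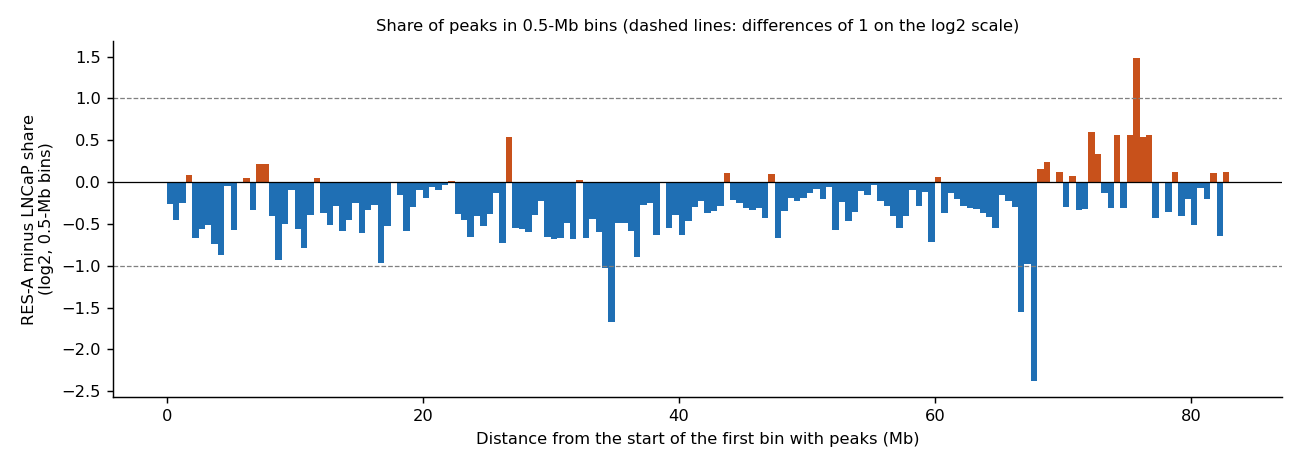
Difference of the mean log2 share of peaks, RES-A minus LNCaP, in 164 bins of 0.5 Mb (vertical bars, blue where RES-A was lower and orange where it was higher), against the distance in Mb from the start of the bin at 20 Mb. Most bars lie between 0 and −1; 4 bars pass −1, at distances of 34 to 35, 66.5 to 67 and 67.5 to 68 Mb, and 1 bar passes 1, at 75.5 to 76 Mb.

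Single regions with the clearest contrast of calls were found in both directions. The top-ranked peaks of all libraries merged into 3846 regions on chromosome 15 and 119361 in all. Of those on chromosome 15, 33 were called in all 12 LNCaP and in no RES-A library among the top-ranked peaks (0.858%, against 0.437% of all regions), and 23 in all 12 RES-A and in no LNCaP library (0.598%, against 1.42% of all). At least 6 more LNCaP than RES-A libraries called 554 regions (14.4%, against 8.95% of all), and at least 6 more RES-A libraries called 224 (5.82%, against 10.6% of all). The first segment held 488 of these 554 regions among its 3268 (14.9%), near the 14.4% of the whole chromosome.

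The regions named from each direction were high in every library of one subline, and most of the other subline's libraries called a lower peak at the same place. They were picked by calls in all 12 libraries of one subline and none of the other. A difference in enrichment was therefore partly built in by the choice. At chr15:70737948-70738523 the fold enrichment was 5.97 to 15.7 in LNCaP (median 12.3), and a peak of lower rank was listed in 11 of 12 RES-A libraries with 3.49 to 7.58 (median 6.11). At chr15:48201072-48201750 it was 5.17 to 8.85 in LNCaP (median 7.07) and 2.94 to 6.02 in the 11 RES-A libraries that listed a peak (median 3.97). At chr15:70258675-70259393 it was 5.33 to 9.38 in LNCaP (median 6.92) and 3.39 to 5.31 in all 12 RES-A libraries (median 4.29). Only at the last of these places did the fold enrichments of the listed peaks not overlap.

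The named regions that RES-A called, picked in the same way, showed a wider separation. At chr15:85149980-85150421 the fold enrichment was 12.7 to 15.7 in RES-A (median 14.1), against 3.12 to 5.59 in the 9 LNCaP libraries that listed a peak (median 3.43). At chr15:42184659-42185098 it was 9.59 to 17.6 in RES-A (median 15), against 2.72 to 4.79 in 8 LNCaP libraries (median 3.73). At chr15:69777095-69777554 it was 6.8 to 10.5 in RES-A (median 8.05), against 2.63 to 4.43 in 7 LNCaP libraries (median 3.06). None of these ranges overlapped. At these picked sites all listed RES-A peaks were more enriched than those of LNCaP, although the share of the chromosome was lower in RES-A. All of the 6 named regions lay in the first segment, which held 3268 of the 3846 regions.

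The treatments were compared by tests, since the choice of the chromosome did not rest on them. The comparison asks whether the share of peaks on chromosome 15 followed androgen or its inhibitor within a subline. With DHT the share was 3.39% ± 0.0673 against 3.33% ± 0.0734 with DMSO in LNCaP (SD, n = 3 each), higher in 3 of 3 same-numbered pairs, and 2.77% ± 0.0197 against 2.67% ± 0.0976 in RES-A, higher in 2 of 3. The exact two-sided permutation p was 0.4 in LNCaP and 0.2 in RES-A (n = 3 each), where 0.1 is the smallest p that 3 against 3 libraries allow. ENZ against DMSO differed by −0.0376 percentage points in LNCaP and 0.0410 in RES-A, and DHT+ENZ against DHT by −0.0238 and −0.111, with exact permutation p from 0.4 to 0.8. After Benjamini-Hochberg adjustment all 6 values were 0.8, and each treatment difference was smaller than the difference between the sublines.

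Single bins were tested across the genome with limma. Of the 42 bins of chromosome 15, 0 passed an adjusted p of 0.05 in any of the 6 contrasts, and 1 to 3 bins per contrast had an unadjusted p under 0.05. For DHT against DMSO these were 1 bin in LNCaP (13.2% of all bins) and 3 in RES-A (3.83%). ENZ against DMSO gave 2 such bins in LNCaP (3.28%) and 1 in RES-A (0.478%), and DHT+ENZ against DHT gave 2 in LNCaP (5.95%) and 1 in RES-A (3.28%). In the 3 interactions 0 bins of chromosome 15 had an unadjusted p under 0.05, against 8.27%, 1.44% and 4.03% of all bins in the same order. Over all 1463 bins limma called 1.16% for DHT against DMSO in LNCaP, 0.205% for DHT+ENZ against DHT in LNCaP, and 0% in each of the other contrasts and in the 3 interactions of treatment with subline. Without the shallow pair, 2 bins of chromosome 15 passed for DHT against DMSO in LNCaP (2.39% of all bins). They were those at 20 to 22 Mb, with a log2 difference of 0.46 (SE 0.11, limma adjusted p = 0.0355), and at 28 to 30 Mb, with 0.31 (SE 0.08, limma adjusted p = 0.0483), against 0.19 and 0.22 with all libraries (limma adjusted p = 0.713 and 0.441). At 20 to 22 Mb the DHT libraries held 0.0474%, 0.0769% and 0.0929% of their peaks and the DMSO libraries 0.0601%, 0.0725% and 0.0525%. At 28 to 30 Mb the DHT libraries held 0.0645%, 0.0809% and 0.0769% and the DMSO libraries 0.0642%, 0.0690% and 0.0572%. The first DHT value in each bin is that of the shallow library, and at 20 to 22 Mb it lay below all DMSO values. Without it these calls rest on 2 DHT libraries. The median difference on chromosome 15 for DHT against DMSO was 0.01 on the log2 scale in LNCaP and 0.05 in RES-A.

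With the 50000 top-ranked peaks of each list, 5 of the 34 bins of chromosome 15 that then held enough peaks passed in RES-A for DHT against DMSO, 4 higher and 1 lower, where 5.22% of all bins passed, and with the 25000 top-ranked peaks 2 of 16 did (5.95% of all bins). At 22 to 24 Mb the top-ranked peaks numbered 21, 20 and 20 with DHT and 14, 12 and 16 with DMSO, a log2 difference of 0.53 (SE 0.08, limma adjusted p = 0.000627). At 54 to 56 Mb, the bin that holds the low stretch described above, they numbered 23, 22 and 19 with DHT and 15, 17 and 17 with DMSO, a difference of 0.37 (SE 0.09, limma adjusted p = 0.0182). At 66 to 68 Mb they numbered 32, 28 and 33 with DHT and 39, 38 and 37 with DMSO, a difference of −0.29 (SE 0.08, limma adjusted p = 0.0305). The DHT and DMSO libraries did not overlap in any of these bins. On average the RES-A DHT libraries were shallower, with a genome-wide background of 2.32 ± 0.729 against 3.24 ± 0.443 with DMSO (SD, n = 3 each). The calls among top-ranked peaks were not adjusted for depth, and its part in them was not tested. The other bins that passed were those at 60 to 62 Mb, with 0.33 (limma adjusted p = 0.0437), and at 98 to 100 Mb, with 0.37 (limma adjusted p = 0.0439). Of these bins, that at 22 to 24 Mb passed in each of the 24 fits that left out 1 library. It was the only one to pass without RES-A DHT replicate 1, RES-A DHT replicate 2 or RES-A DMSO replicate 1, where the bin at 54 to 56 Mb had limma adjusted p of 0.1004, 0.0923 and 0.0991. For the bin at 22 to 24 Mb the difference in LNCaP was 0.14 (limma adjusted p = 0.380). The difference between the sublines in its DHT effect had a limma adjusted p of 0.259. Over all deposited peaks its DHT difference in RES-A was 0.08 (limma adjusted p = 0.996).

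For DHT+ENZ against DHT in RES-A the bin at 54 to 56 Mb alone passed on chromosome 15, where 0.64% of all bins did. Its top-ranked peaks numbered 16, 14 and 15 with DHT+ENZ against the 23, 22 and 19 with DHT, a difference of −0.49 (SE 0.09, limma adjusted p = 0.00669). Both contrasts use the same DHT libraries. The bin no longer passed without RES-A DHT replicate 1 or 2 (limma adjusted p = 0.0772 and 0.0722) or without RES-A DHT+ENZ replicate 2 or 3 (limma adjusted p = 0.0526 and 0.0839). In LNCaP the same bin held 36 to 39 with DHT and 29 to 38 with DMSO, a difference of 0.14 (SE 0.09, limma adjusted p = 0.403), and the difference between the sublines in the DHT effect had a limma adjusted p of 0.513. Over all deposited peaks the DHT difference of this bin in RES-A was 0.09 (limma adjusted p = 0.996).

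Regions called with DHT and not with DMSO, or the reverse, were counted over both sublines. Of 43824 regions called in 3 to 9 of the 12 libraries, Fisher's exact test called 0% after adjustment in either direction. On chromosome 15, 35 of 1422 regions were called more often with DHT and 17 more often with DMSO at an unadjusted p under 0.05 (2.46% and 1.2%), against 2.8% and 1.37% over all regions. In 7 regions of chromosome 15 all 6 DHT libraries and no DMSO library called a top-ranked peak, and in 4 the reverse held (0.492% and 0.281%, against 0.91% and 0.276% over all regions). Such calls give the smallest p that 6 against 6 libraries allow, 0.00216, which was 0.182 after adjustment here, so that none of these regions passed.

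The regions named were all of this kind, so that their calls are alike in LNCaP and RES-A by choice. At chr15:99071575-99072061 the fold enrichment was 8.58 to 11.7 in the 6 DHT libraries (median 10.7), and 3 of 6 DMSO libraries listed a peak, with 4.06 to 5.83. At chr15:34743081-34743573 it was 5.49 to 11.2 with DHT (median 10.0) and 3.55 to 5.94 with DMSO (median 4.12). At chr15:57821125-57821660 it was 6.21 to 9.58 with DHT (median 7.50) and 3.11 to 4.76 with DMSO (median 3.97). In the first and the third of these regions the enrichments of the treatments did not overlap.

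In the regions called with DMSO the enrichment was lower with DHT. At chr15:49938083-49938517 it was 6.78 to 8.03 with DMSO (median 7.32) and 3.04 to 5.82 in the 5 DHT libraries that listed a peak (median 4.59). At chr15:48973473-48973991 it was 5.34 to 8.03 with DMSO (median 7.07) and 3.46 to 6.31 with DHT (median 4.91), with overlapping ranges. At chr15:82044789-82045226 it was 6.77 to 11.4 with DMSO (median 9.37) and 4.87 to 6.75 in 5 DHT libraries (median 5.77), with the highest DHT value just below the lowest DMSO value. No region passed the adjusted threshold, and these values describe regions picked for the size of their contrast.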

How the data were processed

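FAIRE-seq libraries of LNCaP and RES-A cells were sequenced as 50-bp single-end reads. Per the submitters' processing notes, BWA 0.7.8-r455, Picard 1.118 and MACS2 2.1.0 were used with hg19, and peaks were called in each library. Peak caller options and a control library are not given in the sources used here. The authors deposited for each peak the pileup (a signal that is not scaled between libraries), −log10 of the p-value and of the q-value, and fold enrichment (a ratio to the expected pileup).

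Peaks were binned by summit. The share per bin was log2 of (peaks + 0.5) as a percentage of (list total + 1). Local background was recovered as (pileup + 1) / fold enrichment − 1, which assumes that the caller added 1 to both terms, and a peak counted as at the genome-wide background within 0.5% of its list's smallest value. Pileup and background were set against each list's median because depth differs between lists. A low rank threshold admits more weak peaks in deep libraries, so results were repeated with the 50000 and 25000 top-ranked peaks. Segments of at least 2 bins were fitted by least squares with the smallest BIC, up to 8 segments.

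Treatment contrasts used limma 3.58.1 (R 4.3.3; lmFit, contrasts.fit, eBayes) over 8 group means, exact permutation tests (scipy) and Fisher's exact test, with Benjamini-Hochberg adjustment over all bins or regions. Scripts were tested on simulated data. Named bins were the 3 most positive and 3 most negative differences and those beside each break, named regions the 3 per direction with the largest difference in libraries called (ties by −log10 p percentile) or, for DHT, the smallest Fisher p, and treatment bins the 3 per contrast with the smallest adjusted p. The members, lists and rules were chosen with earlier results of these data known. The methods call the 3 libraries of a group biological replicates. The largest share of identical chromosome 15 peaks between any 2 lists was 0.0761%, so none was counted as a duplicate. No sequences or gene names are given, because no genome of the lists' build was used here.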

Additional observations from a re-analysis of the deposited data

How the results depend on the processing

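Limits of these data are the unknown read depth, for which the recovered background stands in, the caller's threshold, which decides what enters a list, and the confounding of subline with ENZ in the preceding culture. Shares are relative, so that more peaks on other chromosomes lower the share of chromosome 15. The rank of the peaks mattered most: the share difference was −0.872 percentage points with the 50000 and −1.13 with the 25000 top-ranked peaks. Bins lower without overlap numbered 3 of 16 with the 25000 top-ranked peaks (2.69% of all bins) and 14 of 17 with 5-Mb bins (20.4% of all). The breaks numbered 0 with the 50000 top-ranked peaks, 2 with the 25000 (at 44 and 90 Mb) and with 1-Mb bins (at 86 and 88 Mb), 1 with 5-Mb bins (at 90 Mb) and with the DHT libraries alone (at 88 Mb), and 3 with the ENZ libraries alone (at 88, 94 and 98 Mb). The cause was not tested.

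The background of the 3 segments in order was −0.28, −0.0477 and −0.33 with the 50000 top-ranked peaks, −0.29 in the first and −0.33 in the last with the 25000, and −0.11, 0.0257 and −0.19 without peaks at the genome-wide background. The pileup was −0.14 in the first and −0.19 in the last segment with the 50000, and −0.15, −0.12 and −0.16 with the 25000. At shared regions the pileup was −0.31 with the 25000 top-ranked peaks, and −0.29 and −0.38 for pileup and background without the shallow pair; these settings, the 0.5-Mb map and the shared regions were chosen after seeing the data. With the top 50000 peaks, 12 bins of 0.5 Mb were low and 0 high.

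With the 50000 top-ranked peaks limma called 5 bins of chromosome 15 for DHT against DMSO and 1 for DHT+ENZ against DHT in RES-A, with the 25000 it called 2 for the former (5.95% of all bins), and without the shallow pair 2 for DHT against DMSO in LNCaP (2.39% of all bins). Among the 50000 top-ranked peaks, leaving out each library gave 1 to 5 bins for DHT against DMSO and 0 to 3 for DHT+ENZ against DHT in RES-A, and leaving out the shallow pair gave 5 and 3. The share differences of ENZ against DMSO in LNCaP and DHT+ENZ against DHT in LNCaP turned to 0.0493 (50000) and 0.00933 (25000).

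Leaving out each library in turn kept 2 breaks at 88 and 98 Mb, 24 to 27 bins without overlap and a share difference of −0.657 to −0.630. The background of the segments ranged over −0.24 to −0.23, −0.13 to −0.11 and −0.25 to −0.24, and the pileup over −0.06 to −0.04, −0.04 to −0.01 and −0.06 to −0.04. The treatment differences of the share in LNCaP ranged from 0.0200 to 0.0978 (DHT against DMSO), −0.0704 to 0.00207 (ENZ against DMSO) and −0.0494 to 0.0143 (DHT+ENZ against DHT), and in RES-A from 0.0452 to 0.141, −0.0122 to 0.0856 and −0.182 to −0.0313. Over all deposited peaks 0 bins of chromosome 15 were called in each of these fits. For the regions called with DHT the smallest p the test reached had an adjusted value of 0.132 to 0.175 in these fits, so that their count of 0 shows nothing about stability.

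Replicate numbers were shared between groups, but the deviations of same-numbered libraries correlated above 0.1 in every pair in 2 of 6 contrasts only, so that the numbers were not taken to pair the samples. With the replicate block the share differences had exact sign-flip p from 0.25 to 0.75, where 3 pairs allow no p below 0.25. Over all deposited peaks limma with the block called 0 bins of chromosome 15 in the 6 contrasts and 0 in the interactions, and among the 50000 top-ranked peaks it called the same 5 and 1 bins in RES-A. The exact McNemar test over 6 pairs allows no p below 0.0312, which was 0.827 after adjustment.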
